A study of Homo sapiens with 9 samples.

Results

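The 10 genes described here are long noncoding RNAs (lncRNAs) that are often studied in cancer, namely UCA1, NEAT1, MALAT1, GAS5, TUG1, DANCR, H19, MEG3, MIR31HG and MIR155HG. They were chosen by symbol from the 57736 genes of the count table, and UCA1 was selected on its rise in these same libraries, so its values are given as a description with no test. The other 9 members, and the lists of related genes below, were chosen by name with earlier results of these data known. Shares of all genes set beside their counts are therefore a description and not a test. Of the 10 members, 7 passed the filter on low counts, as did 14614 genes in all, and H19, MEG3 and MIR31HG did not pass.

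RNA sequencing was performed in SKMEL-147, a human melanoma cell line, to compare cells that carried a guide RNA against PHF8 with cells that carried a scrambled guide. PHF8 is a histone demethylase, an enzyme that removes methyl groups from histone lysines. All 3 groups expressed Cas9, a nuclease that cuts DNA where the guide pairs, and each had 3 libraries lettered A to C, the scrambled control sgScr and the guides sgPHF8-1 and sgPHF8-3. Each group is a guide-transduced population of 1 cell line, and the study describes its libraries as biological replicates.

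LncRNAs act as RNA and are not read into protein. MALAT1 and NEAT1 stay in the nucleus, where MALAT1 gathers in nuclear speckles and NEAT1 is the scaffold of paraspeckles. GAS5 and DANCR are host genes, whose introns release small nucleolar RNAs (snoRNAs) that guide the chemical modification of ribosomal RNA. MIR31HG and MIR155HG are the host transcripts of miR-31 and miR-155, and H19 and MEG3 are imprinted genes, read from the maternal chromosome. UCA1 was first described in bladder cancer, and TUG1 is a broadly expressed RNA linked to gene silencing.

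The microRNAs below are shown because they are the products of 3 of the host transcripts, and their seeds, bases 2 to 8, stand in capitals. They come from RefSeq, at chr21:25573983-25574006 on the plus strand, chr9:21512158-21512178 on the minus strand and chr11:1996800-1996822 on the minus strand of GRCh38.p14. The 3 seeds differ from each other, and the mature microRNAs themselves were not measured in these libraries.
hsa-miR-155-5p (from MIR155HG): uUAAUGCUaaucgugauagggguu
hsa-miR-31-5p (from MIR31HG): aGGCAAGAugcuggcauagcu
hsa-miR-675-5p (from H19): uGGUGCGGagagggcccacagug

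RefSeq promoters, 250 bases before to 50 after the start, were matched for 8 of the 10 members, not for UCA1 and NEAT1. Those of GAS5, DANCR and TUG1 are shown because these 3 genes passed the test with at least 1 guide and have 1 start each in the table. MALAT1, which also passed it, has 2. The 3 windows lie at chr1:173868996-173869295 on the minus strand, chr4:52712144-52712443 on the plus strand and chr22:30969015-30969314 on the plus strand of GRCh38.p14, and capitals mark matches to the motifs searched.
GAS5: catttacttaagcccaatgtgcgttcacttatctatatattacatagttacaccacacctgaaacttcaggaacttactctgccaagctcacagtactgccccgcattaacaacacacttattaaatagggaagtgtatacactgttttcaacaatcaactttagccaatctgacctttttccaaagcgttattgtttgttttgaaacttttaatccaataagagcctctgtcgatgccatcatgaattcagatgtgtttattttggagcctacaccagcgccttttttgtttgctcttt
DANCR: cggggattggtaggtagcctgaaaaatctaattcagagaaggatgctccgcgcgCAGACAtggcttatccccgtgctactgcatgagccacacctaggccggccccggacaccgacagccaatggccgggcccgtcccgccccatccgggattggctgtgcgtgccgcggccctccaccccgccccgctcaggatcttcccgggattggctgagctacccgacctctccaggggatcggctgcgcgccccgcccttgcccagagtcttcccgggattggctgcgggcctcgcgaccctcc
TUG1: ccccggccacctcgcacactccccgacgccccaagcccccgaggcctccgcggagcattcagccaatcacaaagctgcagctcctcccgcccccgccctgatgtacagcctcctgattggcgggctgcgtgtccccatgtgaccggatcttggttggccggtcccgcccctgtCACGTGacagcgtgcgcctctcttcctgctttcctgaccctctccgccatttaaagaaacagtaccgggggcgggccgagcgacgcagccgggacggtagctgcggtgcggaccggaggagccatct

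The motifs were searched on both strands as AP-1 TGANTCA, CRE TGACGTCA, TEAD GGAATG, SMAD CAGACA, E-box CACGTG, hypoxia core ACGTG and ATF4 composite TGATGNAA. The DANCR promoter held the SMAD letters 196 bases before its start, as did 16.9% of all 35116 promoters in the table. The TUG1 promoter held an E-box 77 bases before its start, as did 7.26% of all promoters, and the hypoxia core lies within those same letters (21.4% of all promoters). The 300 bases of GAS5 held none of these letters. In the other members, AP-1 letters lay 60 bases before the start of MIR155HG (7.71% of all promoters), with the hypoxia core 31 bases before it, and CRE letters in the promoter of MEG3 (1.85%). These are matches of letters only.

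PHF8 RNA was checked first. Its normalised read counts were 655, 606 and 634 in sgScr, 564, 571 and 565 in sgPHF8-1, and 400, 387 and 434 in sgPHF8-3, and no group overlapped another. PHF8 fell by 0.16 ± 0.05 (SE) on the log2 scale with sgPHF8-1 (adjusted p = 0.0272) and by 0.63 ± 0.06 with sgPHF8-3 (adjusted p = 6.36e-09), by edgeR's quasi-likelihood test with Benjamini-Hochberg adjustment, the test behind every adjusted p given without a tool. The level with sgPHF8-3 was below that with sgPHF8-1 by a log2 difference of -0.48 ± 0.06 (adjusted p = 3.86e-06). A cut in the DNA need not remove the RNA, so these counts do not measure the PHF8 protein.

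Library totals were 17366120 to 19838142 counts, and the 3 control libraries were the deepest. The melanocyte-lineage factors SOX10 (2369 to 2830 normalised counts), PAX3 and MITF (200 to 288) were present in every library, whereas MLANA and TYR, which mark pigmented cells, had no count. The pigment genes PMEL and DCT had 0 to 12 and 0 to 5 raw counts per library. SOX10 fell by 0.18 and by 0.11 on the log2 scale with sgPHF8-1 and sgPHF8-3, and PAX3 fell by 0.17 with sgPHF8-1. MITF was not called with either guide (log2 changes of -0.14 and 0.14). It was higher with sgPHF8-3 than with sgPHF8-1 (adjusted p = 0.0306). Of 7 markers of dedifferentiated melanoma, 3 were higher and 2 lower with sgPHF8-1, and 2 were higher and 2 lower with sgPHF8-3. Of all genes tested, 15.2% were higher and 15.7% lower with sgPHF8-1, and 9.48% and 9.78% with sgPHF8-3. Among the 7, NGFR fell by 0.70 and by 0.29, and CYR61 rose by 0.12 and 0.26, with sgPHF8-1 and sgPHF8-3 respectively. Of 9 markers of other cells in the table, 7 did not pass the filter, KRT14 fell by 1.10 and by 0.90 with sgPHF8-1 and sgPHF8-3, and PDGFRB fell by 1.86 with sgPHF8-1. The 9 summed to 64.6 to 66.9 normalised counts in sgScr, 26.7 to 41.1 in sgPHF8-1 and 37 to 56.4 in sgPHF8-3, mostly from KRT14 and PDGFRB, and CD3E was at 0. The part of these markers in the results below was not tested.

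Expressed per kilobase of annotated exon, the levels in sgScr ran from MALAT1 at 1812 ± 124 normalised counts per kb (SD, n = 3) through GAS5 at 594 ± 3.85, TUG1 at 223 ± 11.4, NEAT1 at 196 ± 2.85, DANCR at 146 ± 2.79 and MIR155HG at 76.4 ± 2.75 to UCA1 at 25.2 ± 2.06. No neighbouring pair in this order overlapped among the 3 control libraries. With sgPHF8-1, NEAT1, TUG1 and DANCR came to 203 ± 95.6, 199 ± 1.30 and 194 ± 4.72 per kb and overlapped, and so did MIR155HG at 80.4 ± 6.90 with UCA1 at 68.4 ± 5.65. With sgPHF8-3, DANCR at 157 ± 5.82 overlapped NEAT1 at 144 ± 39.2. NEAT1 has a short and a long form, and a level over its full length averages both. The exon length is the union of all annotated exons. It covers 10179 of the 11299 bases spanned by DANCR and the full span of MALAT1, NEAT1 and TUG1. The order and overlaps of genes therefore depend on the annotation as well as on the RNA.

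UCA1 lies at chr19:15939016-15947138 of GRCh37 (hg19) on the plus strand. It had 114, 102 and 97.8 normalised counts in sgScr, 283, 308 and 261 in sgPHF8-1, and 186, 167 and 183 in sgPHF8-3. All 6 sgPHF8 libraries lay above all 3 control libraries, and the sgPHF8-1 libraries above those of sgPHF8-3. Group means were 105 ± 8.57, 284 ± 23.5 and 179 ± 10.2 (SD, n = 3), 2.71-fold and 1.71-fold the control mean. The log2 fold changes were 1.44 ± 0.09 and 0.77 ± 0.10 (SE), the 27th and 109th highest of the 14614 genes tested. UCA1 overlaps LINC01764 on the other strand, which had 1 to 6 raw counts in each library.

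The difference between the guides does not use the control libraries, although the same sgPHF8 libraries took part in choosing UCA1. That difference is therefore given with no test. It was -0.67 ± 0.09 (log2, sgPHF8-3 minus sgPHF8-1), and PHF8 RNA was also lower with sgPHF8-3. The 5 genes whose log2 CPM followed UCA1 most closely over the 9 libraries, among 13106 genes with a mean of at least 1 CPM, were FTL (Pearson r = 0.997), SSR3 (0.996), NIPA2 (0.994), TXNRD1 (0.993) and SRPRB (0.992). FTL encodes the ferritin light chain, TXNRD1 a thioredoxin reductase, and SSR3 and SRPRB act in protein entry into the endoplasmic reticulum. In all 5 the group means ran in the order of UCA1, as in FTL with 13218 ± 297 normalised counts in sgScr, 20468 ± 809 in sgPHF8-1 and 16530 ± 439 in sgPHF8-3 (SD, n = 3). These correlations come from a search over all genes in 3 groups of libraries and carry no test. The UCA1 neighbours CYP4F2, CYP4F11 and CYP4F12, which encode fatty acid hydroxylases, averaged at most 4.42 normalised counts in any group.

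**Figure D1:**
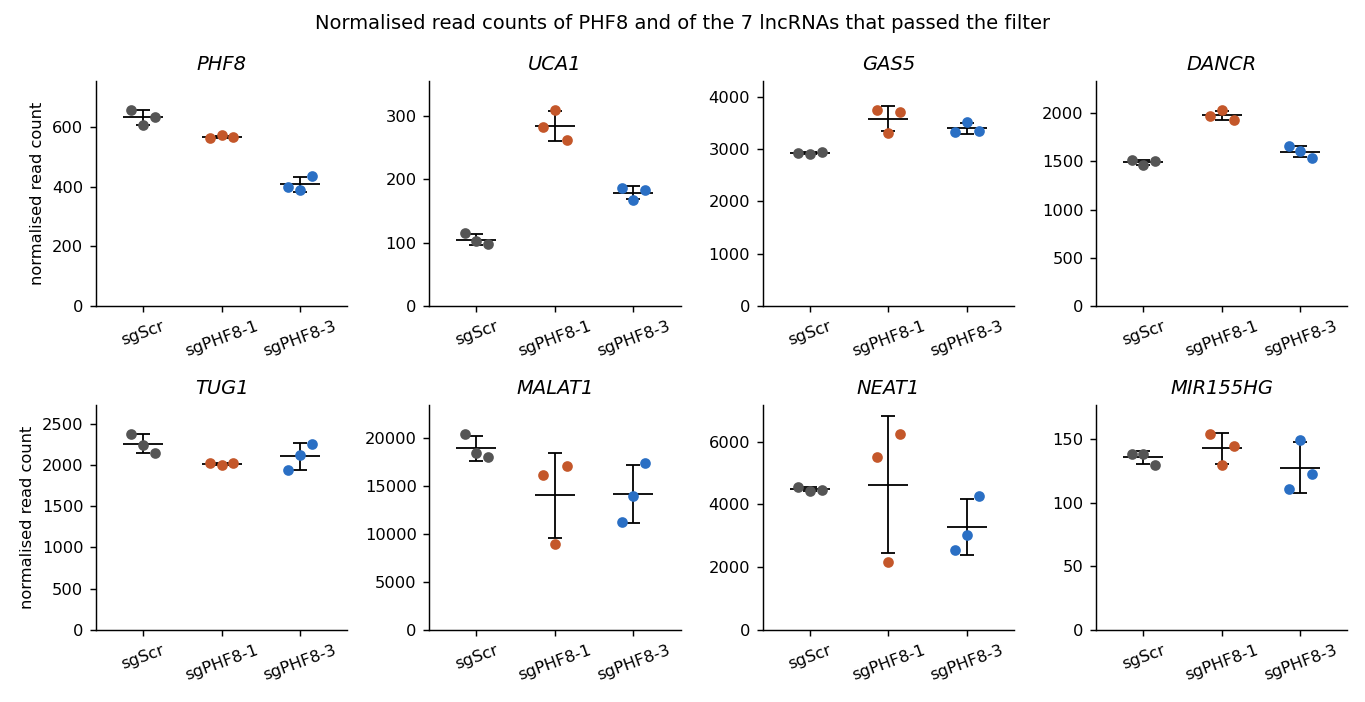
Normalised read counts (vertical axes, linear from 0) of PHF8 and of the 7 lncRNAs that passed the filter, by group. Each point is a library, and the black dash and bars are the mean ± SD of 3 libraries. The 3 groups of UCA1, DANCR and PHF8 do not overlap, and the MALAT1 and NEAT1 points of the sgPHF8 groups spread widely.

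Both snoRNA hosts among the members rose with both guides. GAS5, at chr1:173827697-173838020 of GRCh37 on the minus strand, accumulates in growth-arrested cells. It had 2926, 2910 and 2948 normalised counts in sgScr, 3744, 3316 and 3703 in sgPHF8-1, and 3328, 3515 and 3357 in sgPHF8-3. All sgPHF8 libraries were above all control libraries, and the guides overlapped. GAS5 rose by 0.29 ± 0.04 (SE) on the log2 scale with sgPHF8-1 (adjusted p = 1.63e-06) and by 0.22 ± 0.04 with sgPHF8-3 (adjusted p = 2.53e-04), or 1.23-fold and 1.16-fold the control mean. Both calls held in all 16 alternative fits, with adjusted p of at most 0.00547.

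DANCR, at chr4:53578492-53589790 of GRCh37 on the plus strand, is known for keeping progenitor cells undifferentiated. Its normalised counts were 1514, 1459 and 1499 in sgScr, 1970, 2029 and 1934 in sgPHF8-1, and 1656, 1607 and 1538 in sgPHF8-3. The 3 groups did not overlap, with sgPHF8-3 between the other two. DANCR rose by 0.41 ± 0.04 on the log2 scale with sgPHF8-1 (adjusted p = 1.25e-09) and by 0.10 ± 0.04 with sgPHF8-3 (adjusted p = 0.0459). The call with sgPHF8-3 was near the threshold and was lost in 10 of 16 alternative fits, among them DESeq2 (adjusted p = 0.141) and the fits without any 1 of the 3 control libraries, without sgPHF8-1 A and without sgPHF8-3 A or B (0.0589 to 0.226). DANCR was lower with sgPHF8-3 than with sgPHF8-1 by a log2 difference of -0.30 ± 0.04 (adjusted p = 1.73e-06), in all 16 alternative fits, whereas the difference for GAS5 was -0.08 ± 0.04 (adjusted p = 0.215). Without sgPHF8-1 B the GAS5 difference was -0.13 (adjusted p = 0.00507).

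The strand setting of the counting is not given in the sources used here, so reads of genes that overlap these hosts could have been counted with them. SNORD78, inside GAS5, had 24 to 44 raw counts per library, and SNORA26, inside DANCR, had 44 to 65. GAS5 overlaps ZBTB37 on the other strand, which was not called with either guide.

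The list of other snoRNA hosts, chosen with earlier results of these data known, holds 22 genes, of which 21 passed the filter. With sgPHF8-1, 17 of them were higher and 0 lower, beside 15.2% of all genes tested that were higher and 15.7% that were lower. With sgPHF8-3, 12 were higher and 0 lower, beside 9.48% and 9.78% of all genes tested. Their median log2 fold change was 0.24 with sgPHF8-1 and 0.18 with sgPHF8-3, where the medians of all genes tested were 2.82e-04 and -7.57e-04. All 12 called with sgPHF8-3 were also higher with sgPHF8-1; both comparisons share the control libraries. Without sgPHF8-1 B, 19 and 14 were higher and 0 lower. Over all genes, that fit called 1990 higher and 2094 lower with sgPHF8-1 (2221 and 2292 in the main fit). With sgPHF8-3 it called 1733 higher and 1697 lower (1385 and 1429 in the main fit).

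Of the 12 snoRNA hosts called with both guides, SNHG5 changed most for the mean of the guides, with 3946 ± 159 normalised counts in sgScr, 5301 ± 160 in sgPHF8-1 and 4756 ± 124 in sgPHF8-3 (SD, n = 3). Its log2 fold changes were 0.43 ± 0.03 and 0.27 ± 0.03 (SE). SNHG32 rose by 0.37 and 0.31 on the log2 scale, SNHG12 by 0.32 and 0.23, and SNHG1 by 0.33 and 0.19, with sgPHF8-1 and sgPHF8-3 respectively. SNHG5 and SNHG1 were lower with sgPHF8-3 than with sgPHF8-1 (adjusted p = 0.00288 and 0.0178), 2 of the 4 hosts lower in that comparison, in which 0 were higher and 4.74% of all genes were lower and 5.83% higher. Abundant small RNAs moved as well. RN7SL1, RN7SL2, RN7SK, RMRP and RPPH1, read by RNA polymerase III, took 4.86 to 4.96% of counts in sgScr, 4.88 to 5.07% in sgPHF8-1 and 4.20 to 4.57% in sgPHF8-3. Their part in the result was not tested.

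Of the nuclear RNAs, MALAT1 was called lower with both guides in the main fit, and NEAT1 was called with neither. MALAT1, at chr11:65265111-65275544 of GRCh37 on the plus strand, had 20383, 18363 and 17964 normalised counts in sgScr, 16104, 8887 and 17025 in sgPHF8-1, and 11255, 13932 and 17321 in sgPHF8-3. All 6 sgPHF8 libraries lay below all control libraries, with the 2 highest, sgPHF8-3 C and sgPHF8-1 C, at 0.916 and 0.901 of the control mean and the lowest, sgPHF8-1 B, at 0.470. In a bulk sample, fewer cells with the RNA and less RNA per cell cannot be told apart.

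MALAT1 fell by 0.43 ± 0.14 on the log2 scale with sgPHF8-1 (adjusted p = 0.0183) and by 0.42 ± 0.14 with sgPHF8-3 (adjusted p = 0.0335). With DESeq2 neither was called (adjusted p = 0.257 and 0.324). Without sgPHF8-1 B the change with sgPHF8-1 was -0.19 (adjusted p = 0.0585), and without sgScr A it was -0.38 (adjusted p = 0.0744). The call with sgPHF8-3 was lost without any 1 control library and without sgPHF8-3 A or B (adjusted p of 0.0632 to 0.170). For the mean of both guides the change was -0.42 ± 0.12 (adjusted p = 0.00728), lost with DESeq2 (0.196) and without sgScr A (0.0516). The guides differed by 0.01 ± 0.14 (log2, adjusted p = 0.967), and without sgPHF8-1 B by -0.23 (adjusted p = 0.0433).

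NEAT1, which lies beside MALAT1 at chr11:65190245-65213011 on the plus strand, did not pass the test with either guide. Its normalised counts were 4544, 4418 and 4456 in sgScr, 5498, 2153 and 6237 in sgPHF8-1, and 2545, 3007 and 4269 in sgPHF8-3. The sgPHF8-1 libraries fell on both sides of the control, whereas all 3 of sgPHF8-3 lay below it. The log2 fold changes were 0.05 ± 0.19 (adjusted p = 0.869) and -0.45 ± 0.20 (adjusted p = 0.115), and the guides differed by -0.51 ± 0.20 (adjusted p = 0.107). The change with sgPHF8-3 was called in 5 of 16 alternative fits.

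The NEAT1 result depended on the libraries kept. Without sgPHF8-1 B, NEAT1 was higher with sgPHF8-1 by 0.39 on the log2 scale (adjusted p = 4.19e-04), and the guides differed by -0.85 (adjusted p = 8.87e-09). The log2 change with sgPHF8-3 stayed at -0.45, now with an adjusted p of 4.41e-05. Without sgPHF8-1 A or C, the change with sgPHF8-1 was -0.09 and -0.22 (adjusted p = 0.814 and 0.447). Without sgPHF8-3 C the values with sgPHF8-3 were -0.69 against the control (adjusted p = 0.0163) and -0.74 against sgPHF8-1 (adjusted p = 0.0212). Library sgPHF8-1 B also had the lowest CPM of the 9 libraries for 16.3% of all genes tested, where the other libraries had the lowest for 8 to 11.7%. It was the lowest for 4 of 10 miRNA hosts, 8 of 23 other cancer-related lncRNAs and 5 of 16 genes of paraspeckle proteins. It was the lowest for 2 of 20 genes near the members and for 1 of 21 snoRNA hosts. Its part in the NEAT1 and MALAT1 results beyond these values was not tested.

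**Figure D2:**
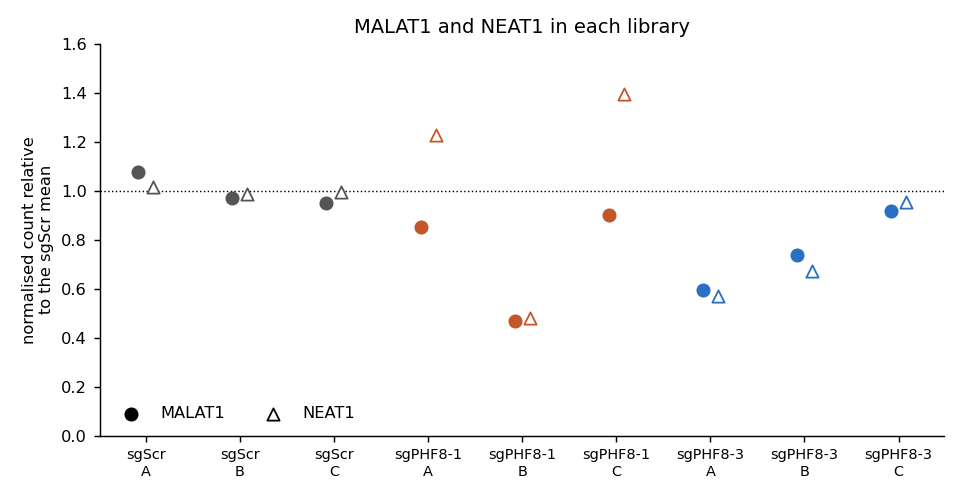
Normalised counts of MALAT1 (filled circles) and NEAT1 (open triangles) in each of the 9 libraries, divided by the mean of the 3 sgScr libraries (dotted line at 1). Both genes are lowest in sgPHF8-1 B, at 0.470 and 0.481, and NEAT1 stands at 1.23 and 1.39 in sgPHF8-1 A and C.

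Of the 16 proteins that build or bind paraspeckles, all passed the filter, 2 were higher and 0 lower with sgPHF8-1, and 4 were higher and 0 lower with sgPHF8-3. Of all genes tested, 15.2% were higher and 15.7% lower with sgPHF8-1, and 9.48% and 9.78% with sgPHF8-3. The median log2 fold changes of the 16 were 0.01 and 0.02. DAZAP1 rose by 0.15 ± 0.03 and 0.13 ± 0.03 (SE) on the log2 scale, and PSPC1, a core protein of paraspeckles, by 0.18 ± 0.04 and 0.12 ± 0.04. The core proteins SFPQ (0.00 and 0.06) and NONO (0.08 and 0.03) were not called with either guide.

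TUG1, at chr22:31365231-31375381 of GRCh37 on the plus strand, which the annotation types as protein coding, had 2380, 2251 and 2149 normalised counts in sgScr, 2025, 2006 and 2031 in sgPHF8-1, and 1940, 2125 and 2262 in sgPHF8-3. The sgPHF8-1 libraries lay below the control, and those of sgPHF8-3 overlapped it. TUG1 fell by 0.16 ± 0.04 on the log2 scale with sgPHF8-1 (adjusted p = 0.00559), and its change with sgPHF8-3 was -0.10 ± 0.04 (adjusted p = 0.105). Without sgScr A, the control library with the highest TUG1, the change with sgPHF8-1 was -0.13 (adjusted p = 0.0525), and without sgPHF8-3 C the change with sgPHF8-3 was -0.15 (adjusted p = 0.0110). The guides differed by 0.06 ± 0.04 (adjusted p = 0.444).

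The microRNA hosts among the members did not pass the test. MIR155HG, at chr21:26934122-26947480 of GRCh37 on the plus strand, had 138, 139 and 130 normalised counts in sgScr, 154, 130 and 145 in sgPHF8-1, and 111, 150 and 123 in sgPHF8-3. All 3 groups overlapped. Its log2 fold changes were 0.08 ± 0.11 (adjusted p = 0.654) and -0.09 ± 0.11 (adjusted p = 0.632). MIR31HG, at chr9:21380072-21559890 on the minus strand, had 2 to 8 raw counts per library, under the filter, and its ranges in the 3 groups overlapped.

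Of 16 other microRNA host genes listed, 15 were in the table and 10 passed the filter. MIR4435-2HG was the 1 called, higher by 0.21 ± 0.04 (SE) on the log2 scale with sgPHF8-1 (adjusted p = 8.85e-05) and by 0.11 ± 0.04 with sgPHF8-3 (adjusted p = 0.0315), and 0 were lower, beside 15.2% of all genes higher and 15.7% lower with sgPHF8-1 and 9.48% and 9.78% with sgPHF8-3. The medians were -0.04 and -0.04. Without sgPHF8-1 B, 2 were higher with sgPHF8-1, and 1 was higher and 2 lower with sgPHF8-3. Over all genes, that fit called 4084 with sgPHF8-1 and 3430 with sgPHF8-3, beside 4513 and 2814 in the main fit.

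Of the imprinted genes, H19 (chr11:2016396-2025782, minus strand) had 0 raw counts in each sgScr library, 1 in each sgPHF8-1 library, and 0, 0 and 1 in sgPHF8-3. MEG3 (chr14:101245747-101327368, plus strand) had 1 count in sgScr B and 0 in the other 8 libraries. A count of 0 allows up to 3 counts, 0.151 to 0.173 CPM at these depths, for counting error only, and no difference was detectable. IGF2, the neighbour of H19, averaged 5.30 to 6.57 normalised counts in the 3 groups, and DLK1, the neighbour of MEG3, had no count.

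The genes near the members number 32, of which 20 passed the filter. With sgPHF8-1, 6 were higher and 2 lower, and with sgPHF8-3, 2 were higher and 3 lower, with medians of 0.02 and 0.03 on the log2 scale. All genes tested had shares of 15.2% higher and 15.7% lower with sgPHF8-1 and of 9.48% and 9.78% with sgPHF8-3. LTBP3, which binds latent TGFβ and lies near MALAT1, fell by 0.46 ± 0.07 and by 0.48 ± 0.07 (SE). CDKN2A, a cell cycle inhibitor gene near MIR31HG, fell by 0.27 ± 0.04 and by 0.26 ± 0.04. SMTN, near TUG1, rose by 0.34 and 0.21, and CENPL, near GAS5, by 0.15 and 0.20.

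A list of 42 other cancer-related lncRNAs held 37 in the table, of which 23 passed the filter. With each guide 4 were higher and 5 lower, the same 9 genes with the same signs in both comparisons, which share the control libraries. These counts stand beside 15.2% of all genes higher and 15.7% lower with sgPHF8-1, and 9.48% and 9.78% with sgPHF8-3. Medians were -0.07 and 0.03 on the log2 scale. HIF1A-AS2, antisense to a hypoxia factor gene, rose from 23.8 ± 4.06 normalised counts in sgScr to 49.5 ± 5.80 in sgPHF8-1 and 53.9 ± 6.22 in sgPHF8-3 (SD, n = 3). LINC00473 fell from 103 ± 10.4 to 46.6 ± 7.88 and 69.5 ± 5.93, FOXD2-AS1 from 45.3 ± 0.65 to 23.4 ± 1.20 and 26.2 ± 1.6, and LINC00511 from 541 ± 31.6 to 307 ± 25.1 and 393 ± 16.3. Without a known strand setting, reads of HIF1A-AS2 and FOXD2-AS1 cannot be told apart from those of any gene overlapping them on the other strand. Such overlaps were not looked up for these genes.

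**Figure D3:**
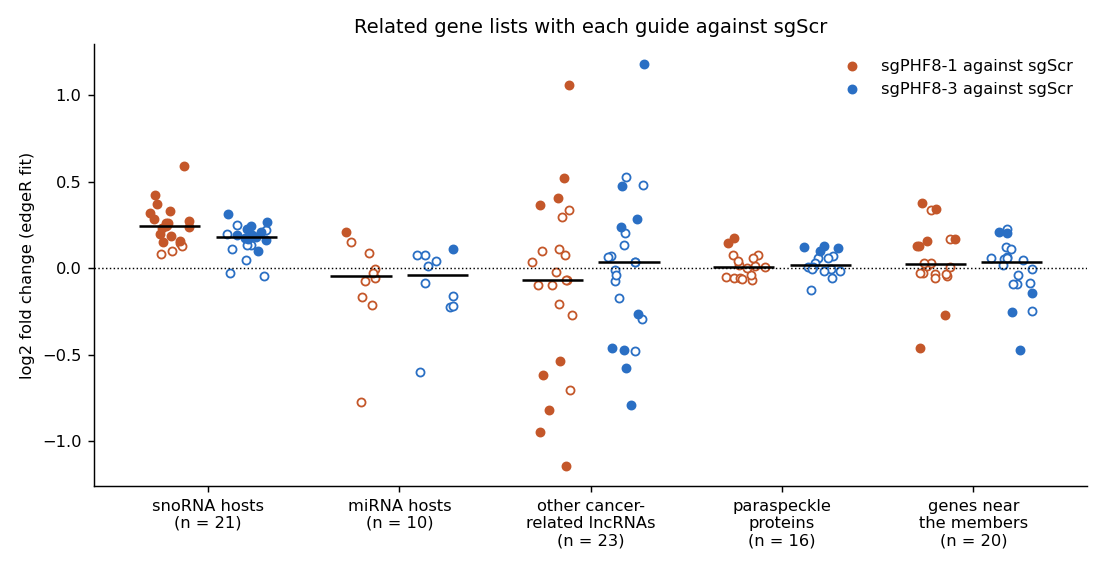
Log2 fold change (vertical axis) of each gene of 5 related lists that passed the filter, for sgPHF8-1 against sgScr (left of each pair) and sgPHF8-3 against sgScr (right). Filled points passed the test and black lines are medians, which are 0.24 and 0.18 for the snoRNA hosts and between -0.07 and 0.03 for the other lists.

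Leaving UCA1 out, 4 of the 6 members tested were called with sgPHF8-1 (GAS5 and DANCR higher, MALAT1 and TUG1 lower), where 30.9% of all genes tested were called. With sgPHF8-3, 3 of 6 were called (GAS5 and DANCR higher, MALAT1 lower), where 19.3% of all genes were called. For the mean of both guides it was 4 of 6, beside 29.6% of all genes. Between the guides, DANCR was the 1 member called of the same 6, lower with sgPHF8-3. Of all genes, 10.6% were called in that comparison, 5.83% higher and 4.74% lower. The count without sgScr A was 2 with sgPHF8-1, and the count with sgPHF8-3 was 1 with DESeq2 and without any 1 of the control libraries or sgPHF8-3 A or B, and 5 without sgPHF8-3 C. Over all genes, the fit without sgScr A called 3699 with sgPHF8-1, beside 4513 in the main fit. With sgPHF8-3, the fits with a count of 1 called 1706 to 2151 genes. The fit without sgPHF8-3 C called 2474, beside 2814 in the main fit. With an adjusted p of at most 0.15, p under 0.05 and a log2 fold change beyond 0.25 in either direction, cutoffs that the study states in different places, 2 members passed with sgPHF8-3, MALAT1 and NEAT1, both lower. Between the guides, at an adjusted p of at most 0.05, the count of members called was 4 without sgPHF8-1 B and 2 without sgPHF8-3 C.

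**Figure D4:**
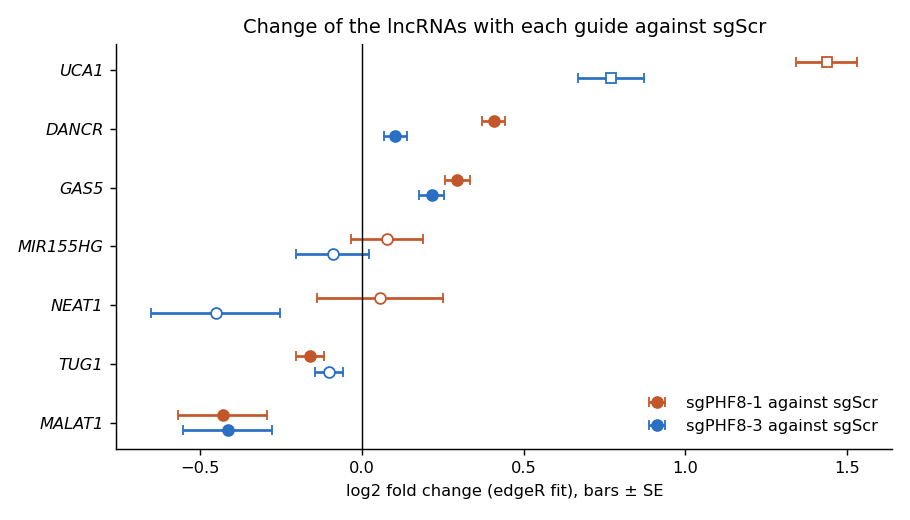
Log2 fold change with its SE (horizontal axis) of the 7 members that passed the filter, for sgPHF8-1 (orange) and sgPHF8-3 (blue) against sgScr. Filled circles passed the test, open circles did not, and UCA1, which was not tested, is drawn as open squares at 1.44 and 0.77.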

How the data were processed

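Ribosomal RNA-depleted total RNA of SKMEL-147 cells was sequenced as paired-end reads, which the authors aligned to hg19 with STAR. HTSeq, Picard and DESeq2 are named in the submitters' processing notes, and the strand setting and gene annotation of the counting are not given in the sources used here. The authors deposited a table of raw counts per gene and a table of normalised values, a signal that equals the counts divided by 1 size factor per library (100% of values were whole reads within 0.01). Raw rows carry Ensembl identifiers and normalised rows gene symbols, and they were joined by name and counts.

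Raw counts of 14614 genes (edgeR's filterByExpr) were fitted in 1 model over the 9 libraries with TMM scaling and edgeR 4.0.16's quasi-likelihood test in R 4.3.3. Genes with a Benjamini-Hochberg adjusted p of at most 0.05 over all genes were called, UCA1 was left out of every count of members called, and the SE is the log2 fold change divided by the square root of F. The fit was tested on simulated data. Alternatives were DESeq2 1.42.0, limma 3.58.1 on log2(normalised value + 1), other scalings and filters, a replicate block, other sample sets and a combination of the study's cutoffs. Listings of other genes name at most 4 per list, those called with the same sign with both guides and largest for their mean. The members and lists were chosen with earlier results of these data known. Positions are from GENCODE for GRCh37 and sequences from RefSeq for GRCh38.p14. Markers whose symbols were not matched were not analysed here.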

Additional observations from a re-analysis of the deposited data

Results flagged for a closer look

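DANCR differed between the guides by the test of that difference itself, edgeR's quasi-likelihood test. It was lower with sgPHF8-3 than with sgPHF8-1 by a log2 difference of -0.30 ± 0.04 (SE, adjusted p = 1.73e-06), in all 3 libraries of sgPHF8-3 against all 3 of sgPHF8-1. PHF8 RNA was also lower with sgPHF8-3 than with sgPHF8-1.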

How the results depend on the processing

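At 17366120 to 19838142 counts per library, H19, MEG3 and MIR31HG were under the filter, and with 3 libraries a group, leaving out 1 library changed calls of NEAT1, MALAT1, DANCR, TUG1 and GAS5. Of 383 tested fold changes of members under an alternative, 336 kept their direction and their side of the threshold, 23 lost a call, 12 gained one with the sign kept and 12 changed sign, of which 1, MALAT1 between the guides without sgPHF8-1 B, also gained a call. The 64 values of UCA1, which was not tested, kept their sign and moved by less than its largest SD within a group (log2 scale). The same libraries chose UCA1, so these values are a description and give its rise no support. The cause of none of the changes below was tested.

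With DESeq2, 1 member was called with sgPHF8-3, and the genes called were 1706 with sgPHF8-3, 2849 for the mean of both guides and 915 between the guides. With 3 cutoffs combined that the study states in different places (p under 0.05, adjusted p of at most 0.15 and a log2 fold change beyond 0.25 in either direction), the genes called were 2205 with sgPHF8-1 (819 higher, 1386 lower), 1367 with sgPHF8-3 (472 and 895), 1716 for the mean (591 and 1125) and 714 between the guides, where 2 members were called. With sgPHF8-3, 2 members passed these cutoffs, MALAT1 and NEAT1, both lower, and GAS5 and DANCR did not. Without the filter on low counts, NEAT1 was called with sgPHF8-3, for the mean and between the guides, which made 2 members called between the guides.

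Leaving out 1 library at a time, members called ranged from 2 to 4 with sgPHF8-1, from 1 to 5 with sgPHF8-3, from 2 to 4 for the mean and from 1 to 4 between the guides (4 without sgPHF8-1 B and 2 without sgPHF8-3 C), where genes called ranged from 923 (without sgPHF8-3 B) to 1467. Genes called in these fits ranged from 3544 to 4642 with sgPHF8-1 and from 1877 to 3430 with sgPHF8-3. The log2 fold change of NEAT1 with sgPHF8-1 ranged from -0.22 to 0.39, and was -0.092 with limma. That of MIR155HG ranged from -0.22 to 0.0054 with sgPHF8-3 and from -0.071 to 0.0398 for the mean, and that of MALAT1 between the guides from -0.23 to 0.18.

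Same-letter libraries did not deviate together over all genes (9 correlations of -0.08 to 0.05). Correlations over all genes cannot show whether the letters mark a shared preparation that affects fewer genes. With the letter as a replicate block, genes called were 4395 with sgPHF8-1, 2698 with sgPHF8-3, 4198 for the mean and 1481 between the guides, and members called were 4, 3, 4 and 1. Under the block, NEAT1 was called with sgPHF8-3 (adjusted p = 0.0364) and DANCR was not (0.0549), and NEAT1 with sgPHF8-1 was at -0.023. Counts of genes on the lists without sgPHF8-1 B were added after seeing the data.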
